A study of Homo sapiens with 18 samples.

Results

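Serine 5-phosphorylated RNA polymerase II (Ser5 Pol II) was followed from 2 h to 4 h of PAX3-FOXO1 degradation in Rh30 cells, by ChIP-seq. Rh30 is an alveolar rhabdomyosarcoma cell line driven by PAX3-FOXO1, a fused transcription factor. In every group the fusion protein carries an FKBP tag, through which the small molecule dTAG47 directs it to degradation. One group of 2 libraries received DMSO, the solvent, and the other groups, also of 2 libraries, received 500 nM dTAG47 for 2 h or for 4 h. Every region of the Ser5 count table was taken, 12123 of 12123, and the 2 libraries of 4 h were compared with the 2 of 2 h, with the 2 DMSO libraries as the reference level. These are 6 of the 18 samples of the series, and the 12 made with other antibodies were not analysed here. Nothing in the labels says whether replicate libraries came from separate cultures or whether the tagged cells are 1 clone, so the spread behind each p-value may be a technical one.

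As Pol II starts a transcript, its C-terminal tail is phosphorylated on serine 5, and in most genes the phosphorylated enzyme pauses a short way past the start before it is released into the gene. Ser5 signal is therefore highest around start sites and reports Pol II that has started, not how much finished RNA is made. Immediate early genes such as EGR1 and FOS hold Pol II ready at their starts and switch within minutes when cells are disturbed, through serum response factor and its partners. CCN2 is a target of the co-activator YAP with the DNA-binding TEAD factors, and the DUSP phosphatases and SPRY proteins are induced by MAP kinase signalling and restrain it. In alveolar rhabdomyosarcoma PAX3-FOXO1 binds enhancers and keeps a myoblast program running.

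Gene names rest on hg19 start positions written from general knowledge, because an hg19 annotation was not used here. The table of positions covers 297 genes, and 290 of them were placed by comparing distances with the GRCh38 RefSeq gene table. A region is said to lie at a gene's start where its centre is within 1 kb of that position. The table is not complete, so a region named by a distance may have a nearer gene, and exons, introns and UTRs were not assigned. Starts of MYOD1 and MYOG, the defining factors of the muscle lineage of Rh30, carried Ser5 signal, with group means of 278 and 115 CPM (read counts set to a common library size, with TMM scaling) in DMSO.

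The stretches just before the starts of EGR1 and CCN2, a pair of genes high at 2 h with low p-values between the times, are shown first because each has a well-known regulatory site there. Both come from RefSeq in GRCh38.p14, which is not the build of the regions, are written 5′ to 3′ in the direction of transcription, and end at the base before the start. Capitals mark the CArG box, the site of serum response factor, in EGR1 (chr5:138465229-138465478, plus strand) and GGAATG, the core of the TEAD site, in CCN2 (chr6:131951373-131951622, minus strand).
EGR1: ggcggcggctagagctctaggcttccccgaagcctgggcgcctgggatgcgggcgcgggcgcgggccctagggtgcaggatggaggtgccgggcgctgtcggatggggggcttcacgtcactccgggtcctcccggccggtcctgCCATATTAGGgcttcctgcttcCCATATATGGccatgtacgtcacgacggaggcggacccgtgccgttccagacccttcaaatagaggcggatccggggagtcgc
CCN2: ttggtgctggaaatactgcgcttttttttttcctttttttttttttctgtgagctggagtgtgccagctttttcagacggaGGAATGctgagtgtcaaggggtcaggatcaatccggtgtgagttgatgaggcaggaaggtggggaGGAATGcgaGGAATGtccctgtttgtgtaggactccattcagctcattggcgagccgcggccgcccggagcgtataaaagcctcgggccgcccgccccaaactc
The EGR1 window of 250 bases held 2 CArG boxes, ending 95 and 73 bases before the start. Searched on both strands, at least 2 such boxes stood in 0.0313% of 35116 RefSeq windows of this length, and at least 1 in 1.16%. The CCN2 window held 3 copies of GGAATG, ending 163, 98 and 89 bases before the start, and at least 3 stood in 0.0826% of windows and at least 1 in 11.9%. No copies overlapped. A match describes the letters and says nothing about whether a factor was bound in these cells.

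Between 2 h and 4 h no region passed the threshold. Ser5 signal was called lower at 0 regions and higher at 0 of 12123, 0% in each direction (quasi-likelihood test of edgeR, p adjusted by Benjamini-Hochberg under 0.05), and the lowest adjusted p was 0.998. Before adjustment 251 regions (2.07%) were lower and 145 (1.2%) were higher at p under 0.05, and 61 of all regions had p under 0.01. With no true change, a share of 0.05 of regions would fall under 0.05, and 0.01 under 0.01. In this fit the 396 and the 61 regions are smaller shares than those, so the counts themselves are no sign of change. DESeq2 called 0 regions as well, with 26 lower and 7 higher before adjustment. The signs, sizes and intervals below are therefore estimates, and none is a called change from 2 h to 4 h. In ChIP of a whole culture, fewer cells with Pol II at a site and less Pol II per cell cannot be told apart.

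Those estimates were small for most regions. The median log2 fold change of 4 h against 2 h was -0.003 with an SD of 0.19 across regions, and the median standard error of 1 region was 0.177. The 95% interval, which is not adjusted for the number of regions, lay within 1.5-fold in either direction for 8326 regions (68.7%) and within 2-fold for 11738 (96.8%). For those regions a larger move between the times lay outside the interval, while for the other regions the data leave it possible. No region with a mean of at least 20 counts moved by more than 1.04 on the log2 scale.

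**Figure D1:**
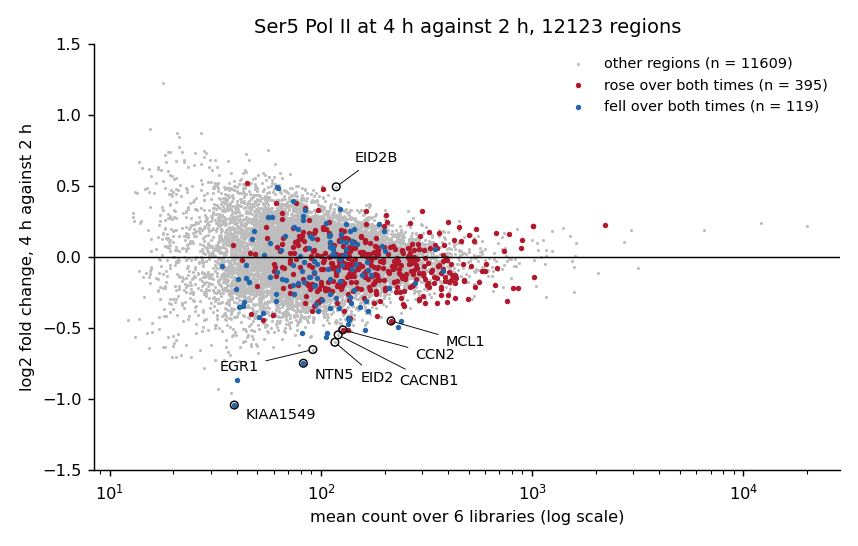
Each point is a region, placed by its mean count over the 6 libraries (x, log scale) and its log2 fold change of 4 h against 2 h (y), with regions that rose (red) or fell (blue) over both times against DMSO and 8 named gene starts circled. The cloud narrows with count around 0, KIAA1549 is the lowest of the named starts at -1.04, and EID2B stands above 0 at 0.49.

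Precision followed the counts. When regions were split by count into 5 equal classes, the class with the fewest counts had a median of 43.0 counts, and there the interval lay within 1.5-fold for 14.3% of regions. In the class with the most, with a median of 194, it did for 95.2%. The sign also leaned with count: estimates were below 0 for 46.6% of regions in the lowest class and for 57.1% in the highest, where the median was -0.024.

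**Figure D2:**
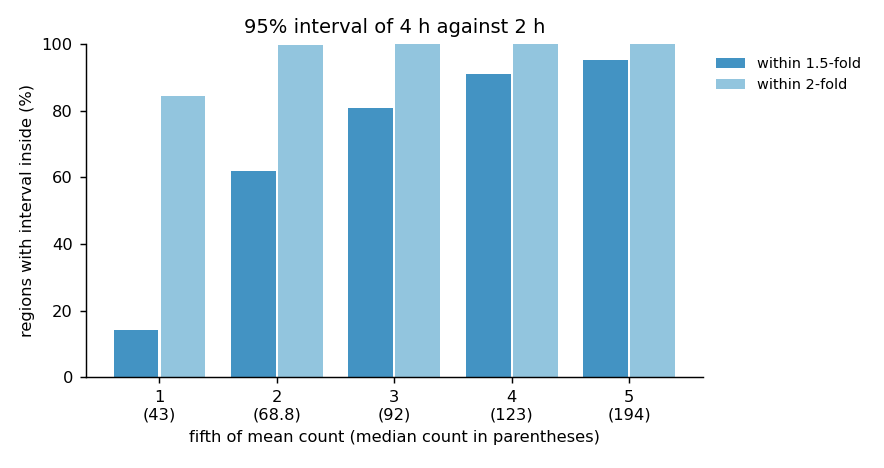
Bars show the percentage of regions, in 5 equal classes of mean count, whose 95% interval of 4 h against 2 h lies within 1.5-fold (dark) or within 2-fold (light). The share within 1.5-fold climbs from 14.3% to 95.2%, and the share within 2-fold starts at 84.5%.

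To ask which responses deepened or faded, responding regions were chosen by the mean of both times against DMSO, a contrast that weights both times equally. A time with noisier libraries can still sway such a choice more. Replicate noise was higher at 4 h than at 2 h (chi-square over its degrees of freedom 2.26 and 1.5), so the choice is not fully neutral. By that contrast Ser5 signal fell at 119 regions (0.982% of those tested) and rose at 395 (3.26%), in a fit with no block for the column letter. With a block by letter the counts were 356 and 791, and with DESeq2 6 and 114. Of the 119 falls, 72 (60.5%) were lower still at 4 h by estimate, with a median of -0.09 and a middle range of -0.263 to 0.096. Of the 395 rises, 251 (63.5%) were lower at 4 h, which is back toward DMSO, with a median of -0.062 and a middle range of -0.17 to 0.055. Over all regions 50.5% were lower. That share is a low background for the rises, whose median count was 164. Estimates were below 0 for 57.1% of regions in the class with the most counts, and for 52.7% in the next class. So by these estimates falls leaned toward deepening and rises toward fading, with a smaller lean of the rises beside regions of high count. No comparison matched for count was run.

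Neither lean was stable across fits or libraries. With the block by letter the share lower at 4 h was 52.0% of falls and 56.4% of rises, closer to the 50.5% of all regions. For rises that share was no higher than the 57.1% of the class with the most counts in the fit without the block. The share of falls that were lower at 4 h was 43.7% without 2 h library B and 81.4% without 4 h library A. The share of rises that were lower was 34% without 4 h library A, 52.2% without DMSO library B, and 69.2% to 72.8% without DMSO A, 2 h A or 4 h B. The way regions are chosen moved the shares as far. Among regions called at 2 h, 31.2% of 48 falls (0.396% of regions tested) and 84.8% of 269 rises (2.22%) were lower at 4 h. Among those called at 4 h, 93.2% of 59 falls (0.487%) and 47.3% of 184 rises (1.52%) were.

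No region turned. The rule for turning asked for opposite signs against DMSO at the 2 times with an unadjusted p under 0.05 at each, and 0 regions met it. Without the p, 2984 regions had opposite signs. Responses of 2-fold or more are a part of the same regions, cut on the same estimates, so they give no separate support to the leans. Among the falls 4 reached 2-fold at both times, 9 at 4 h and not at 2 h, and 0 at 2 h and not at 4 h. Among the rises 20 reached it at both times, 16 at 2 h and not at 4 h, and 6 at 4 h and not at 2 h.

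**Figure D3:**
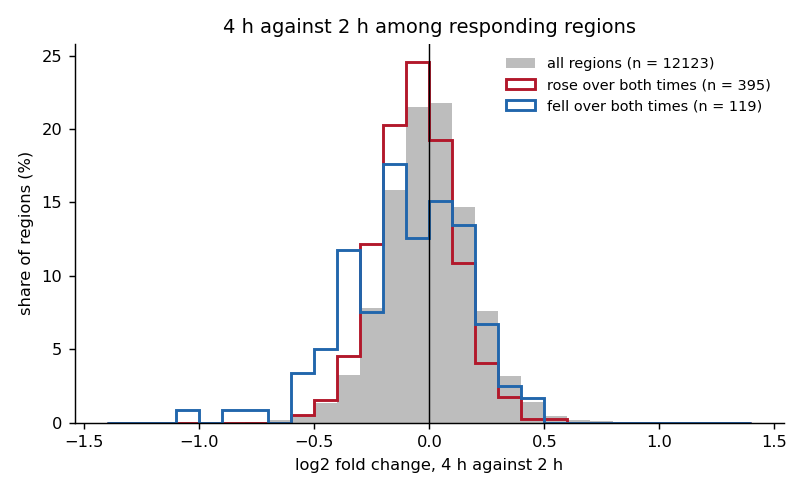
The histogram gives the share of regions (y, percent) by log2 fold change of 4 h against 2 h (x) for all regions (grey), the 395 that rose (red) and the 119 that fell (blue) over both times. Both responding groups are shifted slightly below 0, with medians of -0.062 and -0.09, and overlap the grey background almost entirely.

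The 95% interval of 4 h against 2 h lay below 0 for 17 of the 119 falls (14.3%) and above 0 for 3 (2.52%), beside 2.07% and 1.2% of all regions. These counts follow the choice of regions. For falls called at 2 h the interval lay below 0 for 8.33% and above 0 for 12.5%. For falls called at 4 h it lay below 0 for 35.6% and above 0 for 0%. The 17 falls are the clearest deepening regions by the choice over both times, and each is named here because of its interval. They include starts of KIAA1549, NTN5, HS3ST3A1 (a heparan sulfate sulfotransferase), POU4F1 (a neural POU transcription factor), DUSP6 and ETV4. Others lay in the bodies of ASS1, CCDC154, EXTL1 and HS3ST3B1, and near PRDM12, DBX1 and FGF8.

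KIAA1549 had the largest estimate. Its start on chromosome 7 (138666190 to 138666590) gave 35.1 and 37.6 CPM in DMSO (libraries A and B, an order kept below). At 2 h it gave 26.5 and 30.4 CPM and at 4 h 16.4 and 9.59. Both 4 h libraries were below both 2 h libraries, which were below DMSO, and the estimate was -1.04 (SE 0.32, unadjusted p = 0.00223 by edgeR). Counts were low there, with a mean of 38.8, and the estimate ran from -1.56 to -0.79 as single libraries were left out.
NTN5, which encodes a netrin-family protein, had a region 0.6 kb inside its start on chromosome 19 (49175545 to 49175945). It went from 67.5 and 85.5 CPM in DMSO to 51.7 and 63.9 at 2 h and 38.4 and 27.7 at 4 h (-0.75, SE 0.21, unadjusted p = 0.000934, edgeR). Against DMSO the fall was called at 4 h (log2 fold change -1.14, adjusted p = 0.00017) and not at 2 h (-0.40, adjusted p = 0.262).

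The stretch of chromosome 9 that holds ASS1 and PRDM12 holds several of the largest falls. ASS1 encodes argininosuccinate synthase, an enzyme of arginine synthesis, PRDM12 encodes a neuronal zinc finger regulator, and both were on the list of genes linked to PAX3-FOXO1. The region 3.7 kb upstream of PRDM12 (133536057 to 133536457) had 224 and 259 CPM in DMSO, 120 and 144 at 2 h, and 97.7 and 88.4 at 4 h, with no overlap between groups. Its log2 fold change was -0.87 at 2 h and -1.36 at 4 h, and the difference between the times was -0.49 (SE 0.16, unadjusted p = 0.00386, edgeR).
A region in the body of ASS1 (133355675 to 133356075) went from 117 and 151 CPM to 80.3 and 79.1 and then to 58.0 and 56.5, a difference of -0.47 between the times. The next region downstream (133377115 to 133377515), which was tied to no gene, went from 102 and 97.2 to 71.2 and 63.1 and then to 44.1 and 47.9, a difference of -0.56. All 3 fell against DMSO at both times. The region 19.1 kb past the PRDM12 start fell nearly as far by 2 h (-1.06) and had -1.24 at 4 h, so its difference between the times was -0.17.

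In the body of CCDC154 on chromosome 16 (1487379 to 1487779) stood the largest fall over both times. It had 209 and 177 CPM in DMSO, then 74.7 and 70.7, then 47.9 and 55.4. The log2 fold change was -1.41 at 2 h and -1.93 at 4 h, a further -0.51 (SE 0.18, unadjusted p = 0.00751, edgeR). Other large falls did not differ between the times beyond their spread, with -0.06 for the region 36.9 kb upstream of CAMK1G (SE 0.38), -0.15 for PITPNM3 (0.26) and -0.14 for the region near FOXD4L1 (0.30). LIPC, a lipase gene, had -0.35 (0.31), and an unnamed region on chromosome 12 (30263575 to 30263975) had -0.42 (0.28).

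Fading falls were fewer among the 119 falls over both times. The interval lay above 0 at the start of SVIL, a gene for an actin-binding protein, 1.1 kb upstream of EPHA4, an ephrin receptor gene, and at a region on chromosome 9 (35756921 to 35757321). SVIL went from 50.8 and 59.5 CPM in DMSO to 28.6 and 33.4 at 2 h and 44.7 and 41.5 at 4 h (0.49). EPHA4 went from 49.7 and 60.9 to 29.3 and 31.2 and then to 41.0 and 44.7 (0.49). In both, the 4 h libraries lay between the 2 h and the DMSO libraries.

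Among the 395 rises the interval lay below 0 for 19 (4.81%) and above 0 for 4 (1.01%). Over all regions these shares were 2.07% and 1.2%, so the second share is near the background. For rises called at 2 h they were 10.4% and 0%, and for rises called at 4 h 3.26% and 3.26%. The 19 fading rises include starts of CCN2, MCL1, IER3, ID1, TXNIP, GDF15, MEG3, PACSIN2 and the histone genes H2AC4 and H2AC7, regions near ID3 and SOX8, and regions in the bodies of TEX14 and MEST. GDF15 encodes a stress-induced cytokine and MEG3 a long noncoding RNA. The 4 rises with an interval above 0 were tied to no gene. One of them, on chromosome 16 (33974180 to 33974580), rested on 1 library, with 147 CPM in 4 h library B against 65.5 in 4 h library A. Without 4 h library A it was the sole region called between the times, at 1.05 (edgeR adjusted p = 0.000771), and its lowest estimate without 1 library was -0.11.

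Many immediate early starts rose at 2 h, and most stood nearer to DMSO at 4 h by estimate. Of 33 genes on the list 32 were placed, and 20 had a region at their start. Of the 20 regions 15 were lower at 4 h than at 2 h and 5 higher, with a median of -0.19 beside -0.003 over all regions. That median was -0.10 without 4 h library B. An unadjusted p under 0.05 was reached by 3 in the lower direction, beside 2.07% of all regions, and 0 in the higher, beside 1.2%. After adjustment 0 passed, as over all regions. Both 4 h libraries were below both 2 h libraries in 9 of the 20, beside 16.4% of all regions, and above them in 2, beside 15.1%. Against DMSO 10 of the 20 rose at 2 h, beside 2.22% of all regions, and 1, GADD45B, rose at 4 h, beside 1.52%. A count of calls at each time is not a test of the difference, and both counts share the DMSO libraries. The estimates of 4 h against 2 h also share the 2 h libraries with the calls at 2 h. Of all 269 regions called up at 2 h, 84.8% were lower at 4 h, with a median of -0.15. In 46.5% of those 269, both 4 h libraries were below both 2 h libraries. The lean of the list is therefore not particular to immediate early genes.

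EGR1, a zinc finger transcription factor that is a standard immediate early reporter, carried the CArG boxes shown above. Its start on chromosome 5 (137801033 to 137801433) had 64.3 and 41.1 CPM in DMSO, 91.5 and 78.3 at 2 h, and 49.8 and 60.7 at 4 h. Both 2 h libraries were above the other 4, and the 4 h libraries lay within the range of DMSO. The log2 fold change against DMSO was 0.66 at 2 h (adjusted p = 0.0232, edgeR) and 0.01 at 4 h (adjusted p = 0.99). From 2 h to 4 h it was -0.65 (SE 0.18, 95% interval -1.02 to -0.28, unadjusted p = 0.000914, edgeR), and between -0.77 and -0.49 as single libraries were left out. It was the only region within 60 kb of the EGR1 start.

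MCL1, an anti-apoptotic BCL2-family gene, had 109 and 122 CPM in DMSO, 204 and 192 at 2 h, and 141 and 150 at 4 h on chromosome 1 (150551698 to 150552098). The groups did not overlap, and 4 h lay between the other groups (-0.45, SE 0.14, unadjusted p = 0.00296, edgeR). IER3, a stress-induced survival gene, had 77.8 and 64.3, then 126 and 98.1, then 92.6 and 77.8 CPM (-0.38, SE 0.16, unadjusted p = 0.0203, edgeR). Its 4 h library A and its 2 h library B lay close together, and without 1 library the estimate ran from -0.55 to -0.18.
The other 17 ranged from -0.31 at KLF6 to 0.20 at SRF, and each interval included 0. GADD45B, a growth arrest and DNA damage gene, kept most of its rise, with 51.8 and 50 CPM in DMSO, 108 and 98.8 at 2 h and 93.9 and 78.8 at 4 h. FOS had 106 and 84.2, then 131 and 139, then 137 and 94.8 CPM, so its 4 h libraries spanned the range from DMSO to 2 h (-0.18). JUN (0.09) and ZFP36L2 (0.01) were close to level between the times.

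**Figure D4:**
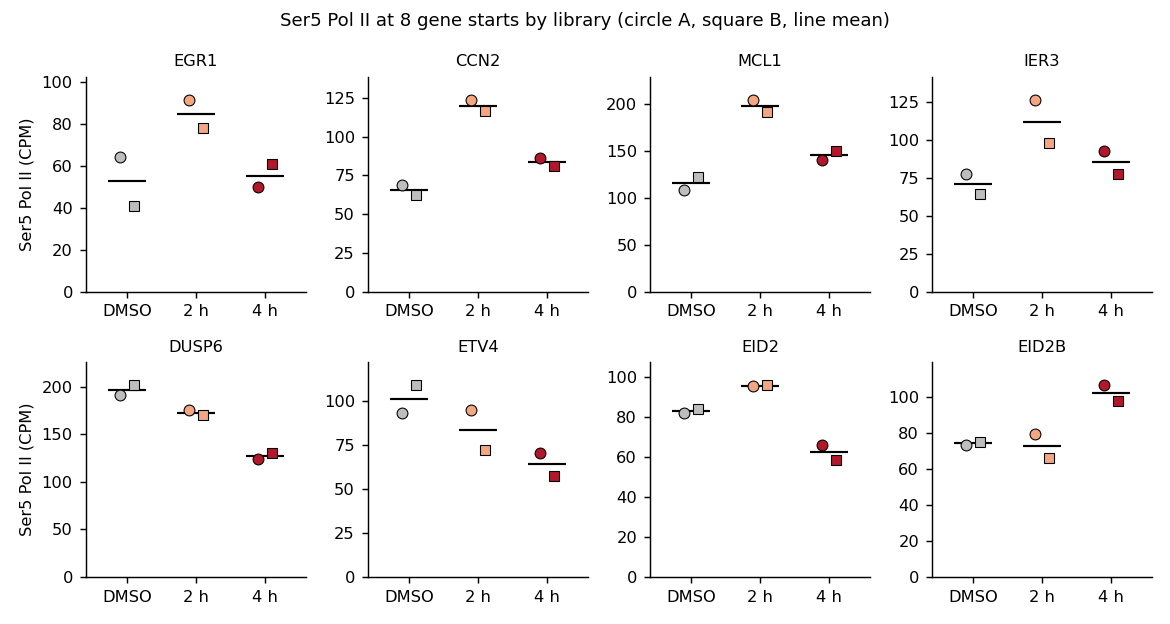
Each panel gives Ser5 signal (CPM, y from 0) at 1 gene start for DMSO, 2 h and 4 h, with circles for library A, squares for library B and a line for the mean of the 2. EGR1, CCN2, MCL1 and IER3 peak at 2 h, DUSP6 and ETV4 step down, and EID2 and its neighbour EID2B part at 4 h.

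YAP and TEAD responsive genes gave 9 regions from 12 genes. Of these 8 were lower at 4 h and 1, TEAD1, was higher, with a median of -0.11, and 1 was lower at an unadjusted p under 0.05, beside 2.07% of all regions. The median was -0.03 without 2 h library B. Against DMSO 2 of the 9 rose at 2 h, CCN2 and AMOTL2, beside 2.22% of all regions, and 0 at 4 h, beside 1.52%. CCN2 encodes a secreted matricellular protein. Its start on chromosome 6 (132272248 to 132272648) had 68.6 and 62.3 CPM in DMSO, 124 and 116 at 2 h, and 86.3 and 81.0 at 4 h, with no overlap between groups. The log2 fold change was 0.87 at 2 h (adjusted p = 0.000112, edgeR) and 0.36 at 4 h (adjusted p = 0.309). The difference was -0.51 (SE 0.15, unadjusted p = 0.00125, edgeR) and ran from -0.57 to -0.47 with any 1 library left out. CCN1, a close relative of CCN2, had 190 and 163, then 212 and 204, then 188 and 177 CPM (-0.19), and LATS2, a kinase that inhibits YAP, had -0.35 (SE 0.19).

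MAPK feedback genes were the group with the largest number of regions under an unadjusted p of 0.05. Of 14 regions at 13 genes 11 were lower at 4 h and 3 higher, with a median of -0.20, and 6 had an unadjusted p under 0.05, each lower, beside 2.07% of all regions. Of those 6, 2 lay at the start of the same gene, SPRY4. Like the other lists, this one was chosen with earlier results of these data known, so its counts are not separate support. For the 8 regions within 500 bases of a start the median was -0.10. Both 4 h libraries were below both 2 h libraries in 8 of the 14, beside 16.4% of all regions, and above them in 0, beside 15.1%. Against DMSO 1, EPHA2, rose at 2 h, beside 2.22%, 0 rose at 4 h, beside 1.52%, and DUSP6 and ETV4 fell at 4 h, beside 0.487% of all regions.
DUSP6, the phosphatase of ERK, had 192 and 201 CPM in DMSO, 175 and 170 at 2 h, and 124 and 130 at 4 h in the region 0.6 kb inside its start on chromosome 12 (89745471 to 89745871). The groups did not overlap, and the difference between the times was -0.45 (SE 0.15, unadjusted p = 0.00425, edgeR). A second region 1.2 kb upstream of the DUSP6 start had 146 and 152, then 142 and 118, then 137 and 143 CPM, a difference of 0.10. The 2 regions of DUSP6 thus differed in their estimates, and that difference was not tested.

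ETV4, an ETS factor downstream of FGF and ERK signalling, had 93.4 and 109 CPM in DMSO, 95 and 72.2 at 2 h, and 70.6 and 57.5 at 4 h. Its 2 h libraries spanned from the 4 h level to that of DMSO (-0.36, SE 0.17, unadjusted p = 0.0413, edgeR), and the estimate ran from -0.54 to -0.15 as single libraries were left out. DUSP5, an ERK phosphatase of the nucleus, had 146 and 134, then 169 and 181, then 142 and 110 CPM (-0.45, SE 0.15). EPHA2, an ephrin receptor, had 103 and 130, then 182 and 150, then 134 and 111 (-0.42, SE 0.15). SPRY4, an inhibitor of receptor tyrosine kinase signalling, had 2 regions at its start with -0.46 and -0.43. As single libraries were left out, the estimate ran from -0.67 to -0.29 at DUSP5, from -0.58 to -0.27 at EPHA2, and from -0.66 to -0.20 and from -0.48 to -0.38 at the regions of SPRY4. Group means of DUSP5, EPHA2 and SPRY4 were highest at 2 h, while those of DUSP6 and ETV4 were highest in DMSO. DUSP1, the phosphatase most often counted among immediate early genes, had 159 and 115, then 197 and 173, then 204 and 174 CPM, with 0.04 between the times.

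**Figure D5:**
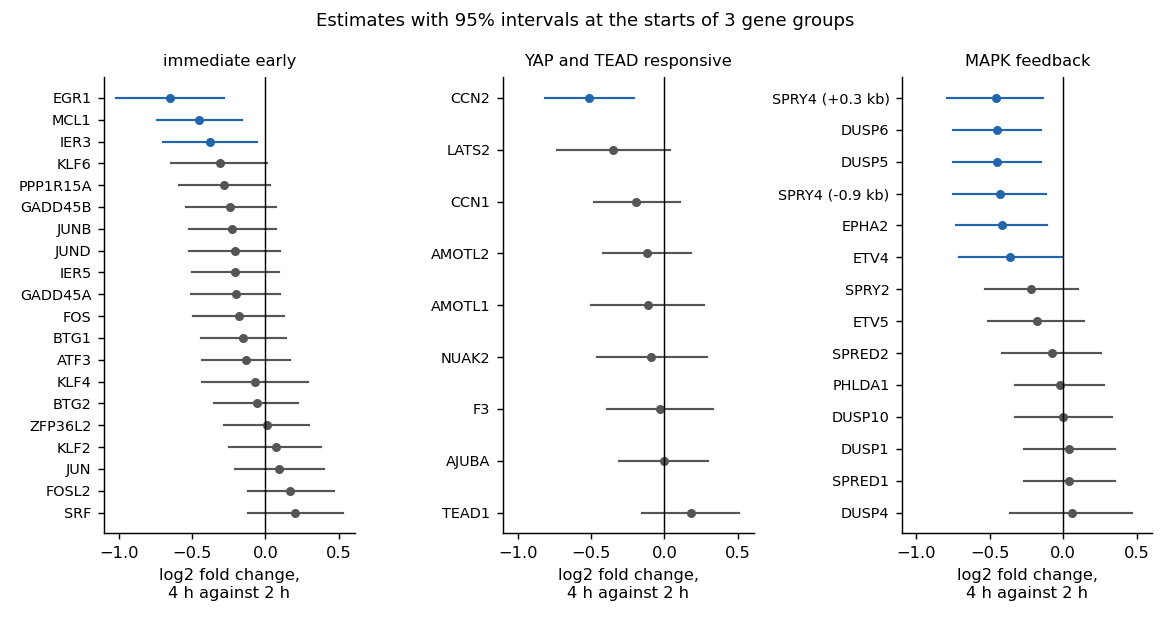
Points are log2 fold changes of 4 h against 2 h with 95% intervals (x) at the starts of immediate early, YAP and TEAD responsive, and MAPK feedback genes (y), in blue where the interval lies below 0. Of 43 regions 10 are blue, none has an interval above 0, and most of the others sit to the left of 0.

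Small nuclear RNA genes, which make the RNAs of the spliceosome and of histone RNA processing, had the highest median rise of the gene lists run. The list run held 13 genes. The U1 genes and RNU2-1 had been planned for it and were not run, so the values do not cover them. Of 12 regions 11 rose at 2 h, beside 2.22% of all regions, and 11 at 4 h, beside 1.52%. The exception at each time was RNU6ATAC, whose region lay 0.7 kb upstream of its start. Median log2 fold changes of the 12 against DMSO were 1.36 at 2 h and 1.16 at 4 h. From 2 h to 4 h 11 of 12 were lower and 1, RNU6ATAC, was higher, with a median of -0.19. An unadjusted p under 0.05 was reached by 0, beside 2.07% of all regions lower and 1.2% higher. The 11 lower regions are those called up at 2 h. Of all 269 regions called up at 2 h, 84.8% were lower at 4 h, with a median of -0.15. The lean is therefore not particular to small nuclear RNA genes. RNU5A-1, a U5 gene, had 126 and 122 CPM in DMSO, 475 and 431 at 2 h, and 370 and 371 at 4 h (-0.29, SE 0.15). RNU11, a minor spliceosome gene, had 281 and 337, then 866 and 829, then 689 and 767 (-0.22, SE 0.16). In both genes 4 h lay below 2 h in each library and far above DMSO. RNU5D-1 (-0.15), RNU5B-1 (-0.18) and RNU4ATAC (-0.19) differed less, as did SNORD118 (-0.05), which makes the U8 small nucleolar RNA, and DNAJB4 (-0.11), a chaperone gene. Copies and pseudogenes of these RNA genes are nearly identical, so how reads were shared among them is uncertain. The 10 largest rises also held regions in gene bodies. A region 45.7 kb into HHAT had 32.9 and 23.3, then 76.8 and 94.3, then 75.6 and 73.5 CPM (-0.19, SE 0.17). Regions 12.5 and 60.3 kb into TEX14 had -0.33 (SE 0.14) and -0.29 (SE 0.15).

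ID inhibitors and BMP targets gave 5 regions, of which 4 were lower at 4 h (median -0.20). The starts of ID1, ID2 and ID3, which block muscle and other helix-loop-helix factors, rose at both times. That is 3 of the 5 regions at each time, beside 2.22% of all regions at 2 h and 1.52% at 4 h. Of all 269 regions called up at 2 h, 84.8% were lower at 4 h, so the lean is not particular to this list. A further region 2.9 kb past the ID3 start rose at 2 h (log2 fold change 0.77) and was not called at 4 h (0.43, adjusted p = 0.191, edgeR). ID1 had 141 and 168 CPM in DMSO, 342 and 333 at 2 h, and 283 and 254 at 4 h (-0.33, SE 0.15, unadjusted p = 0.0299, edgeR). Its 4 h libraries were below 2 h and well above DMSO. Of 15 FOXO responsive regions 9 were lower and 6 higher, with a median of -0.05. TXNIP, an inhibitor of thioredoxin, went from 35.6 and 49.3 CPM to 90.1 and 82.1 and then to 59.2 and 76.7 (-0.38, SE 0.17), and its estimate ran from -0.54 to -0.17 without 1 library. The cyclin gene CCNG2 had -0.31 (SE 0.15).

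PAX3-FOXO1 linked genes showed no common direction between the times at their starts. Of 18 regions at 17 genes 10 were lower and 8 higher, with a median of -0.00. GREM1, a BMP antagonist, had 88.6 and 75.3 CPM in DMSO, 75.4 and 85.1 at 2 h, and 61.1 and 55.4 at 4 h (-0.45, SE 0.17, unadjusted p = 0.0118, edgeR). NELL1, a secreted growth regulator, had 45.9 and 50, then 29.3 and 31.9, then 44.7 and 42.6 (0.52, SE 0.23, unadjusted p = 0.0257, edgeR), low at 2 h alone. The starts of FGFR4 (0.02), MYOD1 (-0.10) and MYOG (0.07) were close to level between the times.
Myogenic genes had 5 of 9 regions lower (median -0.03), heat shock and chaperone genes 14 of 27 (median -0.02), and Pol II and pause release genes 19 of 30 (median -0.04). In these 3 lists 0 regions had an unadjusted p under 0.05, beside 2.07% of all regions lower and 1.2% higher. With so few regions a count of 0 says little about these lists.

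EID2 and EID2B, neighbouring genes for inhibitors of myogenic differentiation and acetyltransferase activity, moved apart. EID2 had the lowest p of all regions that were lower at 4 h. Its start on chromosome 19 (40030451 to 40030851) had 82.1 and 84.2 CPM in DMSO, 95.7 and 95.8 at 2 h, and 66.2 and 58.6 at 4 h (-0.60, SE 0.16, unadjusted p = 0.000498, edgeR). EID2B, 7.25 kb away, had 73.4 and 75.3, then 79.6 and 66.1, then 106 and 98.0 CPM (0.49, SE 0.16, unadjusted p = 0.00269, edgeR), the third lowest p among regions that were higher. The ratio of EID2B to EID2 counts within a library needs no scaling. It was 0.895 and 0.894 in DMSO, 0.832 and 0.69 at 2 h, and 1.61 and 1.67 at 4 h, so both 4 h libraries stood apart from the other 4. The ratio was chosen after these values were seen and has no test of its own.

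The other regions with the lowest p among those lower at 4 h included starts of CACNB1 (-0.55), a calcium channel subunit gene of muscle, SHB (-0.62), an adaptor of receptor tyrosine kinases, GMEB2 (-0.48), and TGFBR1 (-0.47), a TGF-beta receptor. CACNB1 had 74.5 and 83.5 CPM in DMSO, 88.7 and 119 at 2 h, and 78.8 and 58.6 at 4 h, and SHB had 58.9 and 56.8, then 66.3 and 61.6, then 46.6 and 34.1. In SHB 4 h was below both other groups, and in CACNB1 1 of the 4 h libraries was within the DMSO range. A region 13.8 kb into STC2 (-0.48), one 30 kb upstream of GNA12 on chromosome 7 (2913761 to 2914161; -0.51) and one 24.9 kb upstream of SLF2 on chromosome 10 (102647262 to 102647662; -0.52) completed the 15. The region upstream of GNA12 rose at 2 h (log2 fold change 0.96) and had 0.45 at 4 h.

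Among regions higher at 4 h, the lowest p belonged to a region 52.1 kb into USP25, a deubiquitinase gene, with 30.8 and 41.1 CPM in DMSO, 32.8 and 30.4 at 2 h, and 45.4 and 65.0 at 4 h (0.75, SE 0.23, unadjusted p = 0.00203, edgeR). The USP25 start had 0.25. A region 9.9 kb past the start of VGLL2, a TEAD co-factor of skeletal muscle, had 31.9 and 35.6, then 34.9 and 41.0, then 54.8 and 67.1 CPM (0.66, SE 0.21, unadjusted p = 0.00252, edgeR). Against DMSO this VGLL2 region rose at 4 h (log2 fold change 0.83, adjusted p = 0.0155, edgeR). The VGLL2 start itself was near its 4 h level by 2 h, with 63.7 and 50, then 87.3 and 79.1, then 96.4 and 89.5 CPM (0.17).
The remainder were starts of COQ10B (0.59), PEX3 and ADAT2 (0.47), FAM118B and RPUSD4 (0.59), DNMT3B (0.44), ZNF738 (0.47), STK35 (0.50) and MNS1 (0.68), a region in PLD3 (0.47), one 32.9 kb upstream of MDM1 (0.73) and 3 tied to no gene. PEX3 with ADAT2, and FAM118B with RPUSD4, share a start region, and the counts do not say which gene's Pol II was measured. DNMT3B, a DNA methyltransferase gene, had 70.7 and 57.5 CPM in DMSO, 67.0 and 72.2 at 2 h, and 94.5 and 93.8 at 4 h. For DNMT3B both 4 h libraries were above the other 4.

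Total counts ran from 962251 to 1792013 per library, and 4 h library B was the shallowest, with a median of 60 counts a region. Counts of replicate libraries differed beyond sampling noise (chi-square over its degrees of freedom 2.33 in DMSO, 1.5 at 2 h, 2.26 at 4 h). The 3 regions with the most counts took 1.77% to 4.17% of a library, the most in 4 h library B. With that share as a covariate 0 regions were called between the times, and the lowest adjusted p was 0.258 (edgeR).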

How the data were processed

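The authors deposited raw counts of Ser5 Pol II ChIP-seq reads for 12123 regions of 400 bases and 6 columns. Per the submitters' processing notes, Trimmomatic 0.32, Bowtie2, MACS2, DiffBind and DESeq2 were used, with the builds hg19 and dm3. The sources used here do not give their roles or any spike-in scaling, so a change common to all regions would not be seen. Columns carry letters and the labels numbers, and letters were not tied to numbers.

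Counts were tested with edgeR 4.0.16 (R 4.3.3): TMM factors, glmQLFit and glmQLFTest over all 6 libraries, Benjamini-Hochberg over 12123 regions, threshold 0.05. The filter filterByExpr removed 0 regions. Intervals (95%) use the t distribution with 46.6 degrees of freedom. Of these, 43.6 are borrowed from all regions together, so the spread of a single region rests mostly on a pooled estimate. The code was tested on simulated data. Alternatives used limma 3.58.1 and DESeq2 1.42.0, other scalings and filters, and left out single libraries. Regions were named by the 15 lowest p-values in each direction, the 10 largest falls and rises over both times with a mean count of at least 20, and gene lists. The regions, lists and rules were chosen with earlier results of these data known, and the criteria for placing genes were loosened after some genes had failed: spacing of neighbouring regions, gene length, or an offset shared with another gene. Positions of genes outside the lists were added after the values of their regions had been seen. Histone and ribosomal protein lists were not run, nor were the U1 genes and RNU2-1 planned for the small nuclear RNA list.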

Additional observations from a re-analysis of the deposited data

How the results depend on the processing

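For the 42 regions named by their p for 4 h against 2 h, all 711 values under other settings kept their direction and missed the threshold. Of the 43 regions with an interval on 1 side of 0, 42 kept their sign without any 1 library, and the exception is the region at 33974180 on chromosome 16. Both sets were chosen by their p or interval in these same libraries. A kept direction was therefore likely from the choice alone and is not separate support. Of 316 values for the largest responses over both times 307 kept direction and call, and 9 lost the call, at KIAA1549, LIPC, FOXD4L1 and an unnamed region. Regions called higher between the times numbered 0 to 1 as libraries were left out, the 1 without 4 h library A, where the remaining 4 h library is assumed to vary like the others. Regions with an unadjusted p under 0.05 (251 lower, 145 higher) became 26 and 7 with DESeq2, 431 and 240 with a covariate for the 3 highest regions, and 435 and 299 with a replicate block by column letter, and 192 to 336 and 160 to 316 without 1 library. Falls and rises over both times (119 and 395) became 6 and 114 with DESeq2, 72 and 241 with cyclic loess and limma-trend, 186 and 233 with total count scaling, and 356 and 791 with the block, and falls 181 with the covariate. Without 1 library falls ranged from 72 to 145 and rises from 160 to 494. Deviations of libraries with the same letter correlated at 0.158 to 0.279. With 2 letters, tied to no label, it is not known whether they pair the libraries. The share lower at 4 h ranged from 43.7% to 81.4% of falls and from 34% to 72.8% of rises without 1 library. It was 31.2% and 84.8% for regions called at 2 h, 93.2% and 47.3% for those called at 4 h, and 70.2% of rises called at either time. With the block it was 52.0% of falls and 56.4% of rises, and with DESeq2 83.3% and 80.7%, both added after the data were seen. The immediate early median ranged from -0.23 to -0.10. The cause of these moves was not tested. Depth limits the lowest of the 5 classes of regions by count, where a 1.5-fold move is rarely outside the interval.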
